A study of Mus musculus with 6 samples.

Results

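Mesothelial cells of the lower abdominal muscle (LAM) were chosen by their own measured counts, as the barcodes that carried a UMI of at least 3 of 5 mesothelial genes, Upk3b, Msln, Lrrn4, Krt19 and Muc16. A UMI (unique molecular identifier) stands for 1 captured RNA molecule, and a barcode for 1 cell. Barcodes also had to hold at least 1000 UMIs, with at most 10% of them in mitochondrial genes. Of the 63647 barcodes in the table, 53443 passed these limits and 2539 were mesothelial cells. The 5 genes are measured values of the same libraries, so their levels describe the choice of the cells and support nothing else.

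Mesothelium is the layer of flattened cells that lines the peritoneal cavity, including the inner face of the abdominal wall, and covers the organs in it. It arises from mesoderm and carries keratins, the filaments of epithelia, together with vimentin, the filament of mesenchyme. Mesothelial cells secrete lubricants and protease inhibitors, clear fibrin, and release chemokines and complement proteins into the peritoneal fluid. In injured peritoneum they can loosen their junctions and take on genes of fibroblasts.

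The samples were LAM from 3 wild-type (WT) and 3 Aromhum mice, all male, of strain FVB/N and 9 to 10 weeks old. Aromhum mice carry the human aromatase gene CYP19A1, which turns androgens into estrogens, under its own human promoters in every tissue where these are active, and the labels give them a scrotal hernia. The Aromhum mice were litter mates of the WT mice, and tissue of 1 mouse of each genotype was prepared on each of 3 dates, but the labels do not tie a mouse to a date. The comparison asks how the mesothelial cells of a herniated abdominal wall differ from those of a normal wall. Every mouse carries the transgene or lacks it in all of its cells, so an effect within mesothelial cells and an effect of the altered wall around them cannot be told apart.

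The libraries held 64958237 to 111826460 UMIs and 6765 to 12192 cells within the limits. Mesothelial cells numbered 136, 149 and 63 in WT replicates 1 to 3 and 611, 941 and 639 in Aromhum replicates 1 to 3. Their median depth ran from 8480 UMIs in WT replicate 1 to 13291 in Aromhum replicate 3, and their summed counts from 986802 UMIs in WT replicate 3 to 13255531 in Aromhum replicate 2. WT levels therefore rest on fewer molecules. The table also lists some genes as 0 in every barcode of a library. Between 1071 and 1709 of 16494 genes were at 0 throughout a library, whereas 1 to 114 genes were held by 1 to 17 barcodes and 619 to 1048 by 18 to 34, so a gene held by few cells of a library appears to be listed at 0 there. The 114 were in WT replicate 2, and every other library had at most 5 such genes. No fold change is given for genes listed at 0 in all WT libraries. Across libraries 471 barcode sequences occurred more than once; 35 mesothelial cells shared theirs with a cell of another library and 0 with another mesothelial cell.

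Nearly all of the cells met the rule with room to spare. All 5 genes had a UMI in 1946 cells, 4 of them in 472 and 3 in 121, while 154 cells with 2 of the genes lay just outside. Msln, which encodes the surface protein mesothelin, had a UMI in 99.9% of mesothelial cells. Upk3b, a uroplakin of mesothelium, had one in 99.0%, the keratin Krt19 in 97.2%, Lrrn4 in 93.3% and the mucin gene Muc16 in 82.4%. Cells with 3 of the genes had a median of 7235 UMIs against 12749.5 in cells with 5. The 154 cells just outside held Msln in 88.3% and Krt19 in 83.1%, but Lrrn4 in 1.95% and Upk1b, which the rule did not use, in 11.0%. Those just inside, with 3 of the genes, held Upk1b in 84.3%.

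Mesothelial genes that the rule did not use were at high levels in the same cells. Levels are given as CPM, the UMIs of a gene per 1000000 UMIs summed over the cells of a mouse, as mean ± SD over the 6 mice, and are described without a test because the rule chose the cells on these barcodes. Upk1b, a tetraspanin partner of uroplakins, was at 647 ± 104 CPM in mesothelial cells and at 0.439 CPM in all other cells. Krt8 was at 824 ± 279 CPM against 1.20, and Krt7 at 546 ± 111 CPM against 0.949. The ratios to all other cells were 689 for Krt8 and 575 for Krt7, so these keratins were nearly absent from the rest of the muscle wall. Wt1, the transcription factor of coelomic lining cells, was at 198 ± 21.8 CPM against 37.1 in fibroblasts. Slpi, which encodes a secreted inhibitor of neutrophil elastase, was at 19520 ± 1198 CPM against 60.1 CPM elsewhere. Calb2 (calretinin), a marker of human mesothelium, averaged 0.0918 CPM and so was not a feature of these cells.

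Several of the genes most particular in level to these cells varied widely between mice. By the ratio of their mean CPM in mesothelial cells to that in all other cells, genes near the top outside the rule were Lgals2, Upk1b, Lrp2 and Krt14, at ratios of 2341, 1474, 1468 and 1335. Lrp2 encodes megalin, a receptor for endocytosis of proteins and vitamins, and its level stayed between 35.2 and 77.0 CPM in the 6 mice. Krt14, a keratin better known from basal epidermis, was at 361, 1530 and 935 CPM in WT and 826, 440 and 1341 in Aromhum mice. The genotypes overlapped for Krt14, and the level differed by about as much within each genotype as across all 6 mice. Trp63, which marks basal cells of stratified epithelia, was at 0 in mesothelial cells of all mice, and Upk1a of the urothelium was at 0 in 5 of them and at 0.226 CPM in Aromhum replicate 2.

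**Figure D1:**
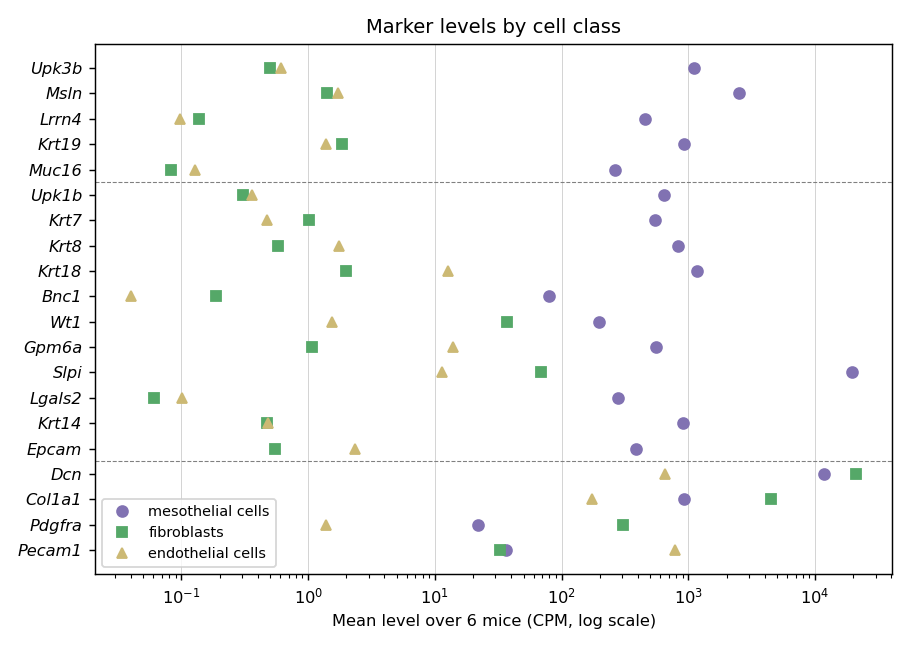
Mean level over 6 mice (CPM, log scale) of marker genes in mesothelial cells, fibroblasts and endothelial cells, with the 5 genes of the rule above the first dashed line and genes of fibroblasts and endothelium below the second. Upk1b, Krt7 and Krt8 lie near or above 500 CPM in mesothelial cells and near or under 2 CPM in the others, whereas Dcn is high in mesothelial cells (11780 CPM) and fibroblasts (21090 CPM).

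Genes of other cell types were also present, at levels that differed between mice. Dcn, a proteoglycan that binds collagen fibrils, was at 10420, 10820 and 8817 CPM in WT and 14350, 14630 and 11630 in Aromhum mesothelial cells. Its mean level was 11780 CPM against 21090 in fibroblasts, whereas Pdgfra, the receptor that defines fibroblasts, was at 21.8 CPM against 307. Lum, another proteoglycan of fibroblasts, was at 138, 56.4 and 48.6 CPM in WT and 695, 694 and 232 in Aromhum mice, without overlap (log2 change 2.82 ± 0.52, edgeR adjusted p = 0.0675). The summed level of 5 fibroblast genes, most of it Dcn, was 9795 to 11550 CPM in WT and 13200 to 16270 in Aromhum mice, without overlap, and the median log2 change of the 5 was 1.29. The endothelial sum was highest in WT replicate 3, at 535 CPM against 77.8 to 154 elsewhere. The immune sum ran from 22.6 to 291 CPM in WT and 273 to 1079 in Aromhum mice, with Ptprc, the leukocyte antigen CD45, at 0 to 5.07 CPM. The red cell and smooth muscle sums were highest in WT replicate 1, at 932 CPM against 4.68 to 179 elsewhere and at 1062 against 155 to 576. The adipocyte sum, from the 1 gene of that list in the table, was 775 CPM in WT replicate 3 and 676 in Aromhum replicate 3 against 59.5 to 399 elsewhere. Skeletal muscle genes summed to 590 CPM in Aromhum replicate 3 against 43.6 to 212 elsewhere, and glial genes to 11.9 to 95.6. Of 30 markers of other cells tested, 0 passed edgeR's threshold between genotypes, 12 had an unadjusted p under 0.05 (19.9% of all genes tested) and DESeq2 called 2 (4.44% of the same genes), and their part in the results below was not tested.

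Mesothelial cells took a larger share of the cells in every Aromhum mouse than in any WT mouse. They were 1.60%, 2.02% and 0.931% of the cells within the limits in WT replicates 1 to 3, with 95% Wilson intervals from 0.729% to 2.36%. In Aromhum mice they were 5.72%, 7.72% and 8.10%, with intervals from 5.29% to 8.72%. The intervals cover counting error only. All 3 Aromhum mice were high and all 3 WT mice low, with no overlap. The mean was 1.51% ± 0.548 (SD, n = 3) in WT and 7.18% ± 1.28 (n = 3) in Aromhum mice, 4.74-fold higher, with a 2-sided exact permutation p = 0.1, the smallest that 3 against 3 mice allow. In a dissociated tissue, more cells of this type and better release of them from the tissue cannot be told apart.

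The other cells of the suspension differed as well: fibroblasts were 17.4% to 28.9% of cells in WT and 33.6% to 42.0% in Aromhum mice, and endothelial cells 34.3% to 51.8% and 15.0% to 28.1% (exact permutation p = 0.1 each). Fibroblasts are here cells with a UMI of Pdgfra, of at least 3 of Pdgfra, Col1a1, Mfap4, Lum and Dcn, and of at most 1 gene of the mesothelial rule. Per 100 fibroblasts there were 5.52, 7.79 and 5.34 mesothelial cells in WT and 15.6, 18.4 and 24.1 in Aromhum mice, again without overlap (exact permutation p = 0.1). Per 100 fibroblasts that also held Wt1 and Aldh1a2, which are shared with mesothelium, the values were 316, 481 and 162 in WT and 221, 363 and 460 in Aromhum mice. Those ranges overlapped (exact permutation p = 0.8). The share of these fibroblasts was itself higher in Aromhum mice without overlap. They were 0.505%, 0.420% and 0.576% of cells in WT and 2.58%, 2.12% and 1.76% in Aromhum mice (exact permutation p = 0.1). The mean difference of 5.66 percentage points in the share of mesothelial cells was 2.53 after thinning every cell to 1000 UMIs. It was 1.77 within the limits of the study, which drop cells of more than 2500 genes and left 385 mesothelial cells. The mean share was then 3.64-fold and 2.91-fold higher in Aromhum mice, without overlap in either. Without cells that held 3 markers of another type the difference was 0.518 and the mice overlapped, and this removed 1892 of 2539 cells. The loss differed by genotype: 83, 93 and 42 cells stayed of 136, 149 and 63 in WT replicates 1 to 3. In Aromhum replicates 1 to 3, 88, 165 and 176 stayed of 611, 941 and 639. Most mesothelial cells of Aromhum mice thus held such markers, and their part in the share was not tested.

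**Figure D2:**
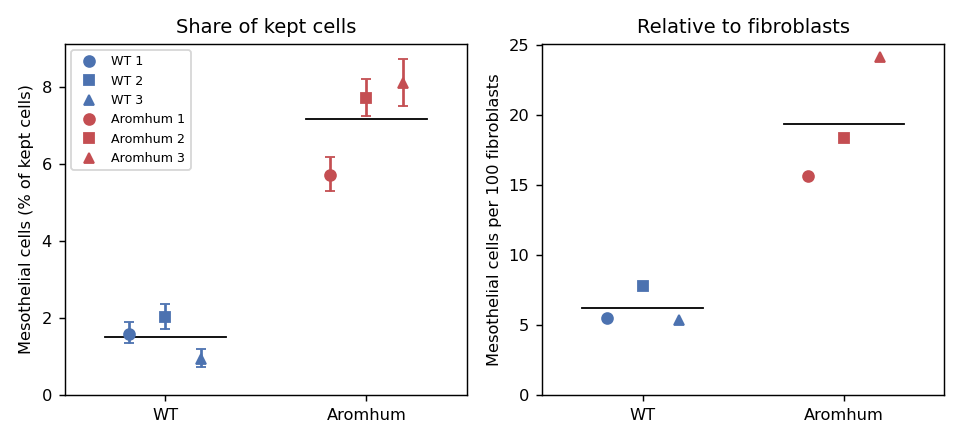
Mesothelial cells in each mouse as a percent of kept cells with 95% Wilson intervals (left) and per 100 fibroblasts (right), with the mean of each genotype as a line. The 3 WT mice lie between 0.931% and 2.02% and the 3 Aromhum mice between 5.72% and 8.10%.

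The aromatase transgene was read in mesothelial cells of every Aromhum mouse. CYP19A1 had 87, 131 and 127 UMIs there, or 10.3, 9.88 and 12.4 CPM, and was listed at 0 in all WT libraries, which checks the labels. The mean was 10.9 ± 1.32 CPM (n = 3) in mesothelial cells, 8.04 ± 0.454 in fibroblasts and 1.61 ± 0.587 in endothelial cells of the same mice. With every cell thinned to 3000 UMIs, 2.84%, 2.70% and 4.26% of mesothelial cells held a UMI of it, 1.99% to 2.37% of fibroblasts and 0.274% to 0.375% of endothelial cells. Without thinning, the share in mesothelial cells was 12.1%, 12.3% and 16.3%. The share in mesothelial cells and fibroblasts thus lay above that in endothelial cells in each Aromhum mouse, at median depths of 10718 to 13291 UMIs in mesothelial and 4776 to 7156 UMIs in endothelial cells.

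Genes of the estrogen response differed widely in level, and none passed the threshold in mesothelial cells. Igfbp4, a binding protein of insulin-like growth factors, was at 260, 80.3 and 166 CPM in WT and 520, 472 and 291 in Aromhum mice, without overlap (log2 change 1.44 ± 0.39, edgeR adjusted p = 0.117). Ctsd, the lysosomal protease cathepsin D, was at 235, 262 and 247 against 279, 245 and 268 CPM, with overlap. Esr1, which encodes estrogen receptor alpha, was at 16.0, 22.6 and 22.3 CPM in WT and 25.4, 23.4 and 30.7 in Aromhum mice. The genotypes did not overlap, at a log2 fold change of 0.46 ± 0.19 (SE), but the edgeR adjusted p was 0.231. Greb1, a target of the receptor, was at 0, 1.35 and 0 CPM against 2.73 to 24.1 in Aromhum mice (adjusted p = 0.132 by edgeR), and Pgr, the progesterone receptor, at 0, 0 and 1.01 against 5.11, 4.68 and 0.974, too low to be tested. In fibroblasts of the same mice mean Pgr was 1.57 CPM in WT and 73.6 in Aromhum mice, and mean Greb1 14.5 and 82.3. Of 14 genes of estrogen receptors and targets that were tested, 6 were higher in Aromhum mice without overlap, against 9.68% of all genes tested. The same number had an unadjusted p under 0.05 by edgeR, and DESeq2 called 5 of the 14 (19.9% and 4.44% of all genes).

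Summed over the mesothelial cells of each mouse, 23 of 11794 genes differed between genotypes (0.195%), 20 higher (0.17%) and 3 lower (0.0254%) in Aromhum mice, at an adjusted p under 0.05 (Benjamini and Hochberg) in the quasi-likelihood test of edgeR. The 20 included a receptor for interleukins 4 and 13, a complement component, proteins of the collagen matrix and carriers for metals and lipids. At an unadjusted p under 0.05 there were 2347 genes (19.9%), and in 3015 (25.6%) the mice of the genotypes did not overlap. The count depended on single mice, Aromhum replicate 3 among them: without it 1151 genes passed, 664 higher (6.32%) and 487 lower (4.63%), and without any other mouse 0 did, with 1224 to 2387 genes at an unadjusted p under 0.05. All 23 genes also passed without Aromhum replicate 3. In 4 of the 20 higher genes every WT library was listed at 0, and with all genes listed at 0 in a library left out 15 higher and 0 lower genes passed, Spsb1 and the 3 lower genes no longer among them. DESeq2 called 548 genes, 524 of them among the 11794 tested by edgeR (4.44%), and limma voom 31.

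**Figure D3:**
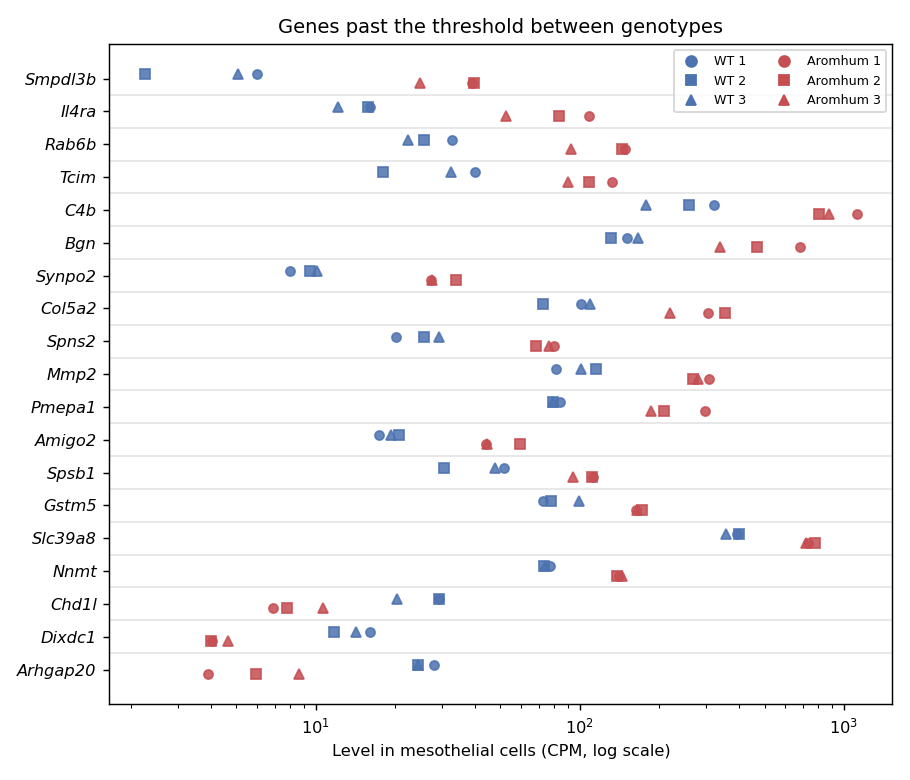
Level of 19 genes past the threshold in mesothelial cells of each mouse (CPM, log scale), without the 4 that were listed at 0 in WT, in the order of the log2 fold change. For 16 genes all Aromhum mice lie to the right of all WT mice, and for Chd1l, Dixdc1 and Arhgap20 to the left.

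Il4ra and C4b were among the genes that rose. Il4ra, the receptor chain shared by interleukins 4 and 13 (chromosome 7, 125552120 to 125579474, in the GENCODE vM21 annotation of GRCm38), was at 16.0, 15.8 and 12.2 CPM in WT and 109, 83.1 and 52.5 in Aromhum mice. Every Aromhum mouse was above every WT mouse, and the log2 fold change was 2.53 ± 0.31 (SE, edgeR adjusted p = 0.0361, but 0.0677 by limma voom). With cells thinned to 3000 UMIs, 2.13% to 3.76% of WT and 13.1% to 24.1% of Aromhum mesothelial cells held a UMI of Il4ra. The shares were 21.7% to 26.2% and 33.7% to 35.4% in endothelial cells, and 11.8% to 15.6% and 18.7% to 22.5% in fibroblasts. They were thus higher in Aromhum mice without overlap in these classes as well. The log2 change in endothelial cells was 0.46 (edgeR adjusted p = 0.053). C4b, the fourth complement component (chromosome 17, 34728380 to 34743882), was at 321, 259 and 178 CPM in WT and 1118, 803 and 877 in Aromhum mice, a log2 change of 1.96 ± 0.24 (edgeR adjusted p = 0.0361). Its reads may in part be those of the near copy C4a, which is not among the genes analysed here. In fibroblasts C4b was at 91.5 and 516 CPM with a larger spread between mice (edgeR adjusted p = 0.0777). Of 16 complement and acute phase genes tested C4b alone passed (0.195% of all genes), and 5 were higher and 1 lower without overlap (9.68% and 15.9% of all genes). At an unadjusted p under 0.05 there were 10 by edgeR, and DESeq2 called 6 (19.9% and 4.44% of all genes). C3, the central component, was at 5161, 5836 and 4957 CPM in WT and 10230, 7662 and 8160 in Aromhum mice (adjusted p = 0.0762 by edgeR).

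Matrix genes that rose were Bgn, Col5a2 and Mmp2. Bgn, biglycan, a proteoglycan relative of decorin (chromosome X, 73483602 to 73495933), was at 151, 132 and 166 CPM in WT and 681, 466 and 339 in Aromhum mice, a log2 change of 1.82 ± 0.25 (edgeR adjusted p = 0.0477). Col5a2, a chain of collagen V, which sits in the core of collagen I fibrils, was at 101, 72.6 and 109 against 306, 356 and 219 CPM, a change of 1.74 ± 0.23 (edgeR adjusted p = 0.0461). Mmp2, a gelatinase that cuts denatured collagen and basement membrane, was at 80.9, 115 and 101 against 309, 267 and 281 CPM, a change of 1.61 ± 0.17 (edgeR adjusted p = 0.0347). All 3 had Aromhum mice above WT mice without overlap. In fibroblasts Col5a2 and Mmp2 rose as well, from 538 to 993 and from 577 to 1036 CPM (edgeR adjusted p = 0.0209 and 0.0353), and the summed fibroblast markers in the mesothelial cells of the same mice are given above. In endothelial cells Bgn, Col5a2 and Mmp2 all rose, by log2 changes of 0.92, 0.93 and 1.11 (edgeR adjusted p = 0.0465, 0.0445 and 0.0418). With cells thinned to 3000 UMIs, Bgn had a UMI in 10.5% to 22.0% of WT mesothelial and 13.6% to 21.3% of WT endothelial cells. In Aromhum replicates 1 to 3 the shares were 69.2%, 60.1% and 35.1% against 43.9%, 33.2% and 33.7%. Mmp2 was the 1 call in 15 metalloproteinase and inhibitor genes tested (0.195% of all genes). Of these 4 were higher and 2 lower without overlap (9.68% and 15.9% of all genes), and DESeq2 called 5 (4.44% of all genes). Of 22 matrix genes tested 2 passed, 7 were higher and 4 lower without overlap (9.68% and 15.9% of all genes) and DESeq2 called 10 (4.44% of all genes), at a median log2 change of 0.43 against -0.01 over all genes tested, and Col1a1, the main chain of collagen I, was at 837, 657 and 905 against 1031, 834 and 1250 CPM, with overlap.

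Other genes that rose were Slc39a8, Spns2, Smpdl3b and Rab6b. Slc39a8 (ZIP8), an importer of zinc and manganese and a gene of the mesothelial list, was at 395, 401 and 357 CPM in WT and 733, 777 and 715 in Aromhum mice. It was at 5.07 CPM in Aromhum fibroblasts, and its log2 change of 1.03 ± 0.14 (edgeR adjusted p = 0.0461) came with a UMI in 58.1% to 60.9% of WT and 82.0% to 83.6% of Aromhum cells thinned to 3000 UMIs. Spns2, an exporter of sphingosine 1-phosphate, was at 20.1, 25.7 and 29.4 against 79.7, 68.2 and 76.5 CPM (edgeR adjusted p = 0.0347). Smpdl3b, a phosphodiesterase of the plasma membrane related to acid sphingomyelinase, was at 6.02, 2.26 and 5.07 against 39.0, 39.7 and 24.8 CPM, a log2 change of 3.14 ± 0.36 (edgeR adjusted p = 0.0361). Rab6b, a small GTPase of Golgi transport, was at 32.8, 25.7 and 22.3 against 148, 144 and 92.7 CPM (edgeR adjusted p = 0.0347). Each of these had its WT mice below its Aromhum mice, and Aromhum replicate 3 was the lowest Aromhum mouse for Smpdl3b, Rab6b and Slc39a8.

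The remaining higher genes moved by 1.00 to 1.99 on the log2 scale. Nnmt, which methylates nicotinamide, was at 76.9, 73.1 and 74.0 CPM in WT and 141, 138 and 144 in Aromhum mice. This was among the tightest differences, with a change of 1.00 ± 0.12 (edgeR adjusted p = 0.0361). Pmepa1, an inhibitor of TGF-beta signaling that is itself induced by TGF-beta, went from 80.9 ± 2.89 to 230 ± 59.1 CPM (edgeR adjusted p = 0.0371), and in fibroblasts from 619 to 1594 (edgeR adjusted p = 0.0168). Synpo2, an actin-bundling protein, went from 9.21 ± 1.08 to 29.7 ± 3.82 CPM, Amigo2, a cell adhesion protein, from 19.1 ± 1.69 to 49.3 ± 8.57, and Gstm5, a glutathione transferase, from 83.0 ± 14.4 to 167 ± 5.05 (n = 3 each; edgeR adjusted p = 0.0361, 0.0477 and 0.0477). Tcim, a regulator of Wnt signaling, went from 30.2 ± 11.2 to 110 ± 20.8 CPM and Spsb1, an adaptor of ubiquitin ligases, from 43.3 ± 11.1 to 106 ± 10.0 (edgeR adjusted p = 0.0477 and 0.0496). Spsb1 did not pass with genes listed at 0 in a library left out (edgeR adjusted p = 0.0547). None of these genes overlapped between genotypes.

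Of the 3 genes that fell, Arhgap20, a GTPase-activating protein, was at 28.1, 24.4 and 24.3 CPM in WT and 3.92, 5.96 and 8.66 in Aromhum mice. Its log2 change was -1.96 ± 0.28 (edgeR adjusted p = 0.0496), and in fibroblasts it was at 86.0 and 45.8 CPM (edgeR adjusted p = 0.0404). Chd1l, a chromatin remodeler recruited to DNA damage, was at 29.4, 29.3 and 20.3 against 6.89, 7.77 and 10.6 CPM, and Dixdc1, a Wnt pathway protein, at 16.0, 11.7 and 14.2 against 4.04, 4.00 and 4.67. Their log2 changes were -1.59 ± 0.23 and -1.62 ± 0.24, each at an edgeR adjusted p of 0.0496, and all WT mice lay above all Aromhum mice. None of the 3 kept its place with genes listed at 0 in a library left out of the test (edgeR adjusted p = 0.0547 each).

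The 4 genes listed at 0 in every WT library included B3gnt7 and Slitrk4. B3gnt7, a glycosyltransferase of keratan sulfate, was at 9.27, 6.56 and 10.3 CPM in Aromhum mesothelial cells and Slitrk4, a neuronal surface protein, at 7.84, 5.73 and 6.62. A gene held by few cells of a library appears in most libraries to be listed at 0, and the WT libraries had 63 to 149 mesothelial cells, so a low WT level and none cannot be told apart.

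Most lists of mesothelial functions held no gene past the threshold, and their values are descriptions. Of 23 mesothelial identity genes tested, Slc39a8 passed (0.195% of all genes) and 3 were higher and 8 lower without overlap (9.68% and 15.9% of all genes). At an unadjusted p under 0.05 there were 11 by edgeR, and DESeq2 called 7 (19.9% and 4.44% of all genes). Wt1 was at 242, 196 and 185 CPM in WT and 186, 189 and 190 in Aromhum mice (edgeR adjusted p = 0.869). Slpi was at 20010, 19410 and 19390 against 21450, 19090 and 17790 CPM (edgeR adjusted p = 0.826). The genotypes overlapped for both genes. Gpm6a, a neuronal-type membrane glycoprotein of mesothelium, was at 675, 768 and 773 against 322, 290 and 489 CPM, and Nkain4, which binds the sodium pump, at 854, 1140 and 879 against 510, 397 and 579 (adjusted p = 0.0763 each by edgeR). Both were lower in all Aromhum mice. Efemp1, fibulin-3, was at 1428, 1202 and 1383 against 365, 325 and 727 CPM (adjusted p = 0.0747 by edgeR), with Aromhum replicate 3 nearest to WT.

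Keratins and junction genes gave 0 calls by edgeR in 20 genes tested, with 4 higher and 6 lower without overlap (9.68% and 15.9% of all genes), 10 at an unadjusted p under 0.05 and 7 called by DESeq2 (19.9% and 4.44% of all genes). Krt8 was at 553, 811 and 453 CPM in WT and 1191, 946 and 990 in Aromhum mice, and its partner Krt18 at 1146, 849 and 655 against 1711, 1368 and 1308, both without overlap (edgeR adjusted p = 0.115 and 0.118). Epcam, an epithelial adhesion protein, was at 144, 253 and 61.8 against 744, 684 and 436 CPM, with a log2 change of 2.08 ± 0.45 (edgeR adjusted p = 0.0771). In cells thinned to 3000 UMIs 17.7% to 33.8% of WT and 58.9% to 72.4% of Aromhum mesothelial cells held a UMI of Epcam, against at most 0.95% of endothelial cells. Genes of mesenchymal transition gave 0 calls by edgeR in 19 tested, with 5 higher and 0 lower without overlap (9.68% and 15.9% of all genes), 6 at an unadjusted p under 0.05 and 5 called by DESeq2 (19.9% and 4.44% of all genes), at a median log2 change of 0.88. Vim, vimentin, was at 1896, 2734 and 2661 CPM against 2652, 2122 and 2841, and Timp1, the inhibitor of metalloproteinases, at 89.6, 205 and 119 against 818, 854 and 420 (adjusted p = 0.0541 by edgeR). Timp1 also rose in fibroblasts, from 137 to 976 CPM (edgeR adjusted p = 0.020). In endothelial cells its log2 change was 1.40 (edgeR adjusted p = 0.0327). A difference of its change between mesothelial cells and fibroblasts did not pass (edgeR adjusted p = 0.835).

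Of 18 cell cycle genes tested 0 passed by edgeR, 3 had an unadjusted p under 0.05 and DESeq2 called 0 (19.9% and 4.44% of all genes). The median log2 change was 0.09, with 2 genes higher and 2 lower without overlap, against 9.68% and 15.9% of all genes. Mki67, a marker of cycling cells, had a UMI in 0.71% to 1.61% of WT and 0.43% to 1.17% of Aromhum mesothelial cells thinned to 3000 UMIs, and Pcna was at 44.1, 38.8 and 48.6 against 39.1, 33.6 and 35.8 CPM. The Mki67 shares of WT replicates 1 to 3 rest on only 133, 141 and 62 thinned cells. A difference in cycling was not detected, and these cells are too few to judge one. Mki67 was chosen after its values were seen.

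Aromhum replicate 3 lay nearer to the WT mice in its gene levels than the other Aromhum mice did. Across 11800 genes its log2 CPM correlated at r = 0.970 and 0.966 with Aromhum replicates 1 and 2 and at 0.937 to 0.960 with the WT mice. Aromhum replicates 1 and 2 correlated at 0.986 with each other and at 0.8996 to 0.9335 with the WT mice. The WT mice, summed from fewer UMIs, correlated at 0.9355 to 0.9404 with one another. Fewer UMIs lower a correlation, so the values among the WT mice cannot be set against those of Aromhum replicate 3. Of 5923 genes with a mean of at least 20 CPM in either genotype, that mouse was nearer to the WT mean than to the mean of the other Aromhum mice in 56.9%, against 22.9% for Aromhum replicate 1 and 26.2% for replicate 2. It was also the mouse with the highest share of mesothelial cells. Saa3, an acute phase apolipoprotein made outside the liver, was at 26.7, 2.26 and 1.01 CPM in WT and at 14040, 11140 and 12.9 in Aromhum mice. Aromhum replicates 1 and 2 were thus far above every WT mouse and Aromhum replicate 3 was below WT replicate 1. In cells thinned to 3000 UMIs 90.3% and 82.8% of the mesothelial cells of Aromhum replicates 1 and 2 held a UMI of Saa3 and 3.32% of those of replicate 3, against 0% to 4.51% in WT. Without thinning these shares were 95.1%, 90.3% and 7.20%, and 1.59% to 8.09% in WT. In fibroblasts of Aromhum replicates 1 and 2 the thinned shares were 14.6% and 13.8%. With all mice the adjusted p of Saa3 was 0.0861 by edgeR, 0.516 by limma voom and 0.000205 by DESeq2, and without Aromhum replicate 3 it was 0.00162 by edgeR. That mouse was singled out by these same values, so p-values without it, here and below, are descriptions and support nothing.

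Prg4 encodes lubricin, the lubricant of joints and serous surfaces. It was at 35.4, 6.77 and 33.4 CPM in WT and 1058, 1071 and 180 in Aromhum mesothelial cells, without overlap and with Aromhum replicate 3 between the rest. The log2 change was 5.11 ± 0.82 (edgeR adjusted p = 0.0586), and 0.00186 was the adjusted p by edgeR without Aromhum replicate 3. A UMI was present in 0% to 3.76% of WT mesothelial cells thinned to 3000 UMIs, at or below the 4.82% to 6.79% in WT endothelial cells, which should lack the gene. In Aromhum mice 79.3%, 78.7% and 23.9% of mesothelial cells held one, against 4.00% to 5.98% of endothelial cells. Mean Prg4 in fibroblasts was 568 CPM in WT and 351 in Aromhum mice.

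Some chemokine genes were likewise highest in Aromhum replicates 1 and 2. Of 19 chemokine and cytokine genes tested 0 passed by edgeR, 10 had an unadjusted p under 0.05 and DESeq2 called 7 (19.9% and 4.44% of all genes). Without overlap 9 were higher and 2 lower, against 9.68% and 15.9% of all genes, at a median log2 change of 1.32 against -0.01 over all genes tested. Ccl2, which attracts monocytes, was at 374, 213 and 330 CPM in WT and 1594, 1531 and 403 in Aromhum mice (edgeR adjusted p = 0.091). Cxcl1, which attracts neutrophils, was at 421, 143 and 183 against 1521, 1671 and 451 (edgeR adjusted p = 0.0892). For both, Aromhum replicate 3 lay just above the highest WT mouse, and without it the adjusted p by edgeR was 0.00185 for Ccl2 and 0.00763 for Cxcl1. Cxcl2, a relative of Cxcl1, was at 362, 24.4 and 180 CPM in WT and 307, 229 and 108 in Aromhum mice, with overlap (edgeR adjusted p = 0.874). Ptgs2, the inducible cyclooxygenase of prostaglandin synthesis, was at 93.6, 43.3 and 81.1 against 406, 547 and 153 CPM. F3, tissue factor, which starts coagulation, was at 99.6, 52.8 and 46.6 against 331, 333 and 106. The edgeR adjusted p was 0.068 for Ptgs2 and 0.0861 for F3. With Aromhum replicate 3 left out, 8 of 16 chemokine and cytokine genes tested were higher past the threshold and 1 was lower, against 6.32% and 4.63% of all genes.

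**Figure D4:**
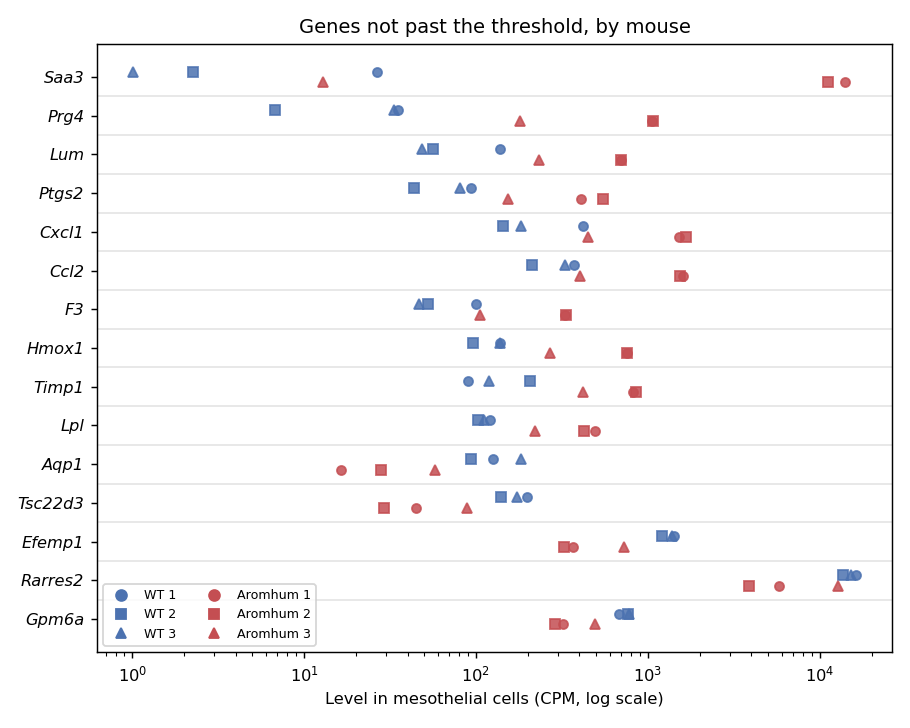
Level in mesothelial cells of each mouse (CPM, log scale) of 15 genes that did not pass the threshold, set together after their values were seen. For Saa3 and Rarres2 the triangle of Aromhum replicate 3 lies by the WT mice, and for Prg4 between the genotypes.

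Among genes at lower levels in Aromhum mice, several had Aromhum replicate 3 nearest to WT. Rarres2, which encodes chemerin, an attractant of macrophages and dendritic cells, was at 16310, 13740 and 15170 CPM in WT and 5796, 3858 and 12690 in Aromhum mice (edgeR adjusted p = 0.214, and 0.00516 without Aromhum replicate 3). Tsc22d3, a glucocorticoid-induced leucine zipper, was at 197, 140 and 174 against 44.9, 29.0 and 88.8 (edgeR adjusted p = 0.0861). Lgals2, a galectin and one of the genes named above for its ratio to other cells, was at 449, 424 and 362 against 139, 66.2 and 244 CPM (edgeR adjusted p = 0.12). In cells thinned to 3000 UMIs Lgals2 had a UMI in 60.9% to 64.5% of WT and 28.3%, 18.2% and 43.9% of Aromhum mesothelial cells. Aromhum replicate 3 was the nearest Aromhum mouse to WT in these 3 genes, which were not chosen to stand for all lower genes.

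The 12 lists of fibrinolysis, retinoid, Wnt, prostaglandin, growth factor, IGF binding protein, basement membrane, hyaluronan, lipid, antigen presentation, androgen and immediate early genes held 180 tested genes, of which 0 passed by edgeR, 69 had an unadjusted p under 0.05 and DESeq2 called 30 (19.9% and 4.44% of all genes). Their median log2 changes lay between -0.30 and 0.51. Igf1, insulin-like growth factor 1, was at 70.2, 35.6 and 85.1 CPM in WT and 158, 139 and 160 in Aromhum mice, and Igfbp7, a secreted binding protein, at 2059, 2733 and 2481 against 5437, 4493 and 3844. Neither overlapped (edgeR adjusted p = 0.0677 and 0.0675). Lpl, lipoprotein lipase, was at 120, 102 and 112 against 493, 427 and 220 CPM and Procr, the protein C receptor, at 98.3, 70.8 and 104 against 278, 227 and 172 (adjusted p = 0.0541 each by edgeR). Aldh1a1, an enzyme of retinoic acid synthesis, was at 394, 197 and 287 against 194, 249 and 280 CPM, with overlap.

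The genotype effect differed between mesothelial cells and fibroblasts for 180 of 14307 genes (1.26%), 143 with the higher change (1%) and 37 with the lower change (0.259%) in mesothelial cells, by the interaction term of edgeR's quasi-likelihood test. Fibroblasts had many more calls of their own, 1142 higher (8.12%) and 1103 lower (7.84%) of 14069 genes, from 1179 to 5125 cells a mouse. Of the 23 genes past the threshold in mesothelial cells 9 also passed this test. Smpdl3b was at 2.60 CPM in WT and 1.04 in Aromhum fibroblasts, a log2 change of -1.33 ± 0.26 (edgeR adjusted p = 0.0251), and its changes differed by 4.49 ± 0.48 (edgeR adjusted p = 0.012). Amigo2 was at 2.02 and 1.07 CPM in fibroblasts, a log2 change of -0.92 ± 0.20 (edgeR adjusted p = 0.0306), and differed by 2.37 ± 0.23 (edgeR adjusted p = 0.0096). Spns2 was at 2.18 and 1.71 CPM in fibroblasts and differed by 2.05 ± 0.18 (edgeR adjusted p = 0.0072).

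The other genes of that test were Il4ra, Rab6b, Synpo2, Bgn, Gstm5 and Chd1l. Il4ra was at 56.5 and 77.5 CPM in WT and Aromhum fibroblasts, a log2 change of 0.45 ± 0.13, and its changes differed by 2.06 ± 0.25. Rab6b, Synpo2, Bgn and Gstm5 differed by 2.02, 1.94, 1.43 and 1.04, and Chd1l by -1.38. In fibroblasts thinned to 3000 UMIs, Rab6b had a UMI in 0.0876% to 0.313%, Smpdl3b in 0.229% to 1.14%, Spns2 in 0.430% to 0.525%, Amigo2 in 0.261% to 0.788%, Synpo2 in 0.653% to 0.916% and Chd1l in 1.15% to 1.75% of cells. In endothelial cells the shares were 0.151% to 0.388%, 0.310% to 1.12%, 11.2% to 21.1%, 2.41% to 4.06%, 1.06% to 3.41% and 0.812% to 1.71%. For Spns2 the endothelial shares were 11.2% to 12.8% in WT and 18.1% to 21.1% in Aromhum mice. Its level also rose in endothelial cells (log2 change 0.64, edgeR adjusted p = 0.0360). The 6 genes were thus at low levels in fibroblasts, and how much of those levels is free RNA was not tested. For Smpdl3b and Amigo2 the difference is made up of the rise in mesothelial cells and of the lower level in Aromhum fibroblasts. Bgn was at 2088 and 2660 CPM in fibroblasts, so its Aromhum level in mesothelial cells stayed below that of fibroblasts of either genotype. The count of 180 was 0 without WT replicate 3 (with 2394 genes at an unadjusted p under 0.05), 9 to 15 without WT replicate 1 or 2 or Aromhum replicate 1 or 2, 1512 without Aromhum replicate 3, and 9 with endothelial cells in place of fibroblasts. For C4b, Pmepa1, Col5a2 and Mmp2 a difference between the cell classes did not pass (edgeR adjusted p = 0.782, 0.546, 0.0719 and 0.156), with log2 differences of -0.47 ± 0.74, 0.22 ± 0.18, 0.86 ± 0.20 and 0.80 ± 0.27.

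**Figure D5:**
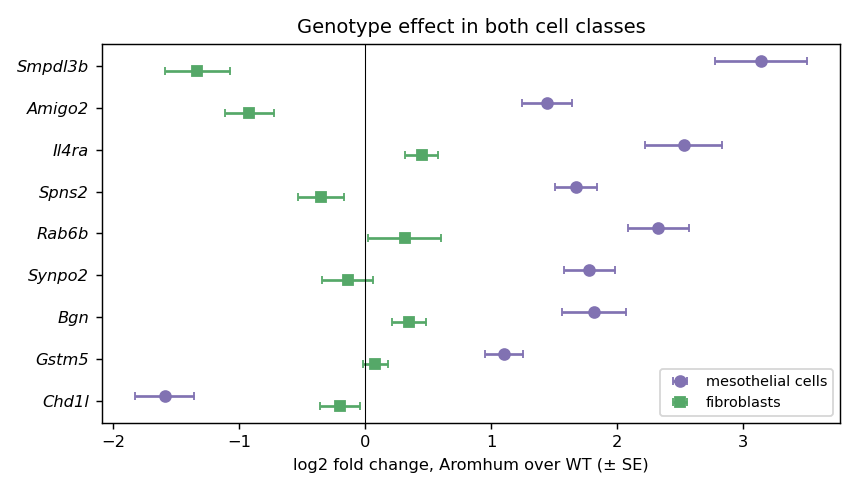
Log2 fold change of Aromhum over WT (± SE) in mesothelial cells and in fibroblasts for the 9 genes past the threshold both between genotypes in mesothelial cells and in the interaction. Every gene but Chd1l lies above 0 in mesothelial cells, and in fibroblasts Smpdl3b, Amigo2, Spns2, Synpo2 and Chd1l lie below 0, of which Smpdl3b and Amigo2 passed the threshold there.

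Upstream sequence was read for the genes past the threshold, to show whether they share letters near their starts. RefSeq promoters (GRCm38.p6, 250 bases before the start) were found for 13 of the 19 genes that were listed in all libraries. The estrogen response element, GGTCA and TGACC with 3 bases of any kind between them, was in 0 of the 13 and in 0.0639% of 32851 promoters, the NF-kB motif, GGGA and TTNCC with any base (N) between them, in 0 and 0.98%, and the AP-1 motif TGANTCA in 1, Gstm5, and 6.75%, each on either strand. A match is a description of letters and not a site of binding. At shares as low as 0.0639% and 0.98%, 13 promoters are too few for a count of 0 to show anything about these genes. Gstm5 lies on chromosome 3 at 107895821 to 107898686 (plus strand) and Saa3 on chromosome 7 at 46711998 to 46715700 (minus strand) in the GENCODE vM21 annotation of the same build. Shown for each are 200 bases upstream of the gene, from 250 to 51 bases before the RefSeq start, at chr3:107895604-107895803 and chr7:46715727-46715926, with the AP-1 match of Gstm5 in capitals. Saa3 is shown because its Aromhum mice spread from 12.9 to 14040 CPM, and it holds none of the 3 motifs there.
Gstm5: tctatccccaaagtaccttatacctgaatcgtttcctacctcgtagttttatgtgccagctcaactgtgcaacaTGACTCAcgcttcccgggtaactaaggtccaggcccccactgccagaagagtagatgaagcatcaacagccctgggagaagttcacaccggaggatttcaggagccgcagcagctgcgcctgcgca
Saa3: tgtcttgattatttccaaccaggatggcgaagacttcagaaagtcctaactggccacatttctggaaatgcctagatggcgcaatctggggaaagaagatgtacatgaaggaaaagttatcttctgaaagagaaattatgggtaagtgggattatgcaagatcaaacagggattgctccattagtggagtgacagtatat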

How the data were processed

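LAM of 3 WT and 3 Aromhum mice had been dissociated, captured as single cells on the 10x Genomics 3′ platform and sequenced. The authors aligned reads with Cell Ranger 3.0.2 to mm10 with the human CYP19A1 gene added, and deposited raw UMI counts per gene and barcode in 1 table, with no normalization. How genes were filtered in that table is not given in the sources used here. All columns were matched to a mouse.

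Barcodes of 1000 or more UMIs, with no more than 10% in mitochondrial genes, were kept, doublets were left in, and cell classes were set by markers. The members and all gene lists were chosen with earlier results of these data known. The mouse was the replicate, and p-values measure the spread between mice. Counts were summed per mouse and class and fitted in edgeR 4.0.16 (TMM, filterByExpr, quasi-likelihood test, Benjamini-Hochberg adjustment over all genes tested, threshold 0.05), without a replicate term. The interaction fit held a term per mouse. The genes of the rules and CYP19A1 stayed in library sizes but out of counts of calls. Log2 fold changes are Aromhum over WT, and SE is their standard error. Shares were compared by 2-sided exact permutation tests. Beside the share in cells thinned to 3000 UMIs, shallower cells were left out. The fits were tested on simulated data.

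Named genes were, among calls without overlap and of at least 20 CPM in the higher genotype, the 12 largest rises and 12 largest falls, with every called gene of a list, up to 4 others of a list by mean CPM, CYP19A1, Esr1, Pgr and Greb1, up to 8 interaction genes in each direction, and the 20 genes of largest ratio to other cells. Outside the rule, the other called genes (B3gnt7, Slitrk4, Dixdc1, Nnmt and Spsb1) were named for completeness, and Mki67 was chosen after its values were seen. Epcam is among the 20 by ratio, but its values by genotype were also chosen after they were seen. Wt1, Gpm6a and Nkain4 come from a set of further mesothelial genes named for their levels, and the rule does not choose them for the genotype comparison. Some genes that the rule names are not reported here. Alternatives were limma 3.58.1 (voom), DESeq2 1.42.0, RLE scaling, no filter on low counts, a replicate block, other marker, mitochondrial and depth limits, Scrublet doublets left out, and each mouse left out. Analyses ran in R 4.3.3 and Python 3.11.15 (scanpy 1.11.5, scipy 1.17.1, pandas 2.3.3, matplotlib 3.10.9).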

Additional observations from a re-analysis of the deposited data

Results flagged for a closer look

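For 9 genes past the threshold in mesothelial cells, the genotype effect also differed between mesothelial cells and fibroblasts by the interaction term of edgeR's quasi-likelihood test. The difference of the log2 fold changes (mesothelial cells minus fibroblasts) was 4.49 for Smpdl3b, 2.37 for Amigo2, 2.06 for Il4ra, 2.05 for Spns2, 2.02 for Rab6b, 1.94 for Synpo2, 1.43 for Bgn, 1.04 for Gstm5 and -1.38 for Chd1l. These genes were picked in part by their effect in the same mesothelial cells, so the differences are not independent of the calls between genotypes. Fibroblast levels of Smpdl3b, Amigo2, Spns2, Rab6b, Synpo2 and Chd1l were low, and for Smpdl3b and Amigo2 part of the difference comes from a lower level in Aromhum fibroblasts (log2 changes of -1.33 and -0.92, edgeR adjusted p = 0.0251 and 0.0306). The fibroblasts came from the same mice and libraries. In endothelial cells of these mice Spns2 and Bgn also rose (log2 changes of 0.64 and 0.92, edgeR adjusted p = 0.0360 and 0.0465). The WT mesothelial level of Smpdl3b rests on 19 UMIs.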

How the results depend on the processing

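The larger share of mesothelial cells in Aromhum mice kept its direction in every alternative, and the cause of its changes in size was not tested. The mean difference of 5.66 percentage points ran from 5.20 to 6.39 with each mouse left out in turn. It was 2.53 (3.64-fold) in cells thinned to 1000 UMIs and 1.77 (2.91-fold) within the limits of the study. Without cells holding 3 markers of another class it was 0.518 (1.54-fold), and the mice overlapped (exact permutation p = 0.4). The 23 genes that differed between genotypes became 548 by DESeq2, 72 with no filter on low counts, 48 and 50 with at least 2 or 4 of the 5 markers, 51 in cells thinned to 1000 UMIs, 54 without Scrublet doublets and 132 without cells holding 3 markers of another class. With each mouse left out in turn the count ran from 0 to 1151, and from 0 to 1512 for the 180 genes of the interaction. After seeing the data, 2 alternatives were added to the genotype test: it gave 88 genes without cells that held a Pdgfra UMI or 3 endothelial markers, and 15 without genes listed at 0 in a library. The interaction gave 9 genes against endothelial cells and 390 without cells holding 3 markers of another class. RLE scaling (23 and 170), limma voom (31 and 192) and a mitochondrial limit of 5% (19 for the genotype test) stayed within 1.5 times.

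Of the 23 genes, all passed by DESeq2, RLE scaling, without a filter on low counts, with at least 4 markers and without Scrublet doublets. Without cells that held a Pdgfra UMI or 3 endothelial markers 22 of them passed. Voom called 18 of them, the analyses with at least 2 markers and with the lower mitochondrial limit 17 each, that without cells holding 3 markers of another class 15, and that of thinned cells 7. Without cells holding 3 markers of another class only 7470 genes were tested, and in thinned cells 4827. Some of the 23 can thus be missing there because they were not tested. Among those that voom did not call were Il4ra, Smpdl3b and Synpo2 (voom adjusted p = 0.0677, 0.0771 and 0.0560). The labels do not say whether equal replicate numbers share a date, and deviations of equal numbers correlated at 0.228, -0.162 and 0.0304, which leaves their pairing unknown. A replicate block gave 305 genes, 23 of them the same, and left the share difference at 5.66 (exact permutation p = 0.25, the smallest that 3 pairs allow). WT levels rest on 63 to 149 cells a mouse. Scrublet marked 0 cells in WT replicates 2 and 3, so leaving its doublets out changed nothing there, and whether it worked in these libraries was not tested. Genes listed at 0 throughout a library have no level in that library. The log2 change took the other sign in some analysis for 7 of the genes named above, past the threshold in neither. With each mouse left out in turn it ran from -0.50 to 0.54 for Krt14, -0.14 to 0.070 for Wt1, -0.39 to 0.10 for Aldh1a1, -0.035 to 0.31 for Upk1b, -0.0024 to 0.14 for Slpi and -0.24 to 1.26 for Cxcl2. Krt14, at -0.05, became 0.060 by voom, 0.10 with a replicate block, 0.11 with at least 2 markers, 0.0057 with the lower mitochondrial limit, 0.018 without Scrublet doublets and 0.024 without cells holding 3 markers of another class. With at least 2 markers Wt1 became 0.13, Aldh1a1 0.013 and Cxcl2 -0.15, without Scrublet doublets Cxcl2 became -0.50, in thinned cells Upk1b became -0.075, and without cells holding 3 markers of another class Pcna became 0.27.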
